A study of Mus musculus with 2 samples.

Results

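The genes described here are 10 genes of the integrated stress response, which are Ddit3, Atf5, Atf4, Trib3, Asns, Chac1, Ppp1r15a, Psat1, Slc7a11 and Atf3. They were taken by symbol from the 32285 genes of both count matrices, using the identifier richest in UMIs (unique molecular identifiers, each a captured transcript molecule) where 1 symbol stood for several. A second identifier named Ddit3 held 0 UMIs. All 10 genes were found in both libraries, and 6 of them reached 20 CPM (UMIs scaled to a library total of 1000000) in at least 1 library, as did 5762 genes in all.

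The cells were mouse hematopoietic stem cells, whose source is labelled blood, kept in suspension for 48 h with RO-3066 or with its vehicle DMSO. The labels give neither the target nor the dose of RO-3066 and name no strain, age or sorting gate. Single-cell 3′ RNA libraries were made, 1 per group, so no difference between the groups has a replicate and none was tested. All intervals are 95% intervals of counting error, and folds compare these 2 libraries.

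In the integrated stress response, kinases that sense unfolded protein, lack of amino acids, lack of heme or double-stranded RNA phosphorylate the translation factor eIF2. General protein synthesis then drops, while a few mRNAs with upstream open reading frames, those of ATF4, ATF5, CHOP (the product of Ddit3) and GADD34 (the product of Ppp1r15a) among them, are translated better. ATF4 binds DNA as a dimer with other leucine zipper proteins and switches on genes of amino acid synthesis and import, and human blood stem cells are known for high ATF4 activity. Much of the response is therefore set at translation, which RNA counts do not measure.

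The promoter sequences are shown because Trib3 and Chac1 each hold a short motif, as do Slc7a11 and Asns. Among pairs with at least 10 expected cells, these 2 genes were found together most above expectation in both libraries. Pairs with a member that lacks a match were also above expectation in both, such as Asns with Psat1 (1.09-fold and 1.07-fold). Whether joint detection follows the motif was not tested. Ddit3, the member with the largest ratio between the libraries, has no match in the same window. The motif searched was TGATGNAA on either strand, a form of the composite C/EBP and ATF element that ATF4 dimers bind. Each RefSeq window (GRCm38.p6) runs from 250 bases before the annotated start to 50 after it and is read 5′ to 3′ along the gene, with matches in capitals.
Trib3, chr2:152344011-152344310, - strand: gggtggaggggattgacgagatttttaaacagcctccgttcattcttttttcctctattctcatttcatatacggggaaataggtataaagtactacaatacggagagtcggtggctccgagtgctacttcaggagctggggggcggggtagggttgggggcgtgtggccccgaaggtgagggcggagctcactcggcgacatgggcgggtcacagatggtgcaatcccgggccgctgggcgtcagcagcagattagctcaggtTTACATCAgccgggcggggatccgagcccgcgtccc
Chac1, chr2:119350992-119351291, + strand: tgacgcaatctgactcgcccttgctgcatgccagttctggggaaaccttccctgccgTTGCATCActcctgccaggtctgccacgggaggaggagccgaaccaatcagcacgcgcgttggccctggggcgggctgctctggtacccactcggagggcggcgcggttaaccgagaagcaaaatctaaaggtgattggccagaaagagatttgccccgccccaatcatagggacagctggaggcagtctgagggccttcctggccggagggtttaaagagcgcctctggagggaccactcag
Slc7a11, chr3:50443564-50443863, - strand: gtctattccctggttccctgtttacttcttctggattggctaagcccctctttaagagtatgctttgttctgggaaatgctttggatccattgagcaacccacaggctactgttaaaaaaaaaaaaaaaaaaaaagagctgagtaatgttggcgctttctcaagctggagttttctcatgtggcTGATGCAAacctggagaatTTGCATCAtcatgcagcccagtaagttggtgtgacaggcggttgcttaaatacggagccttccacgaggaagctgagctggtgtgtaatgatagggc
Asns, chr6:7693160-7693459, - strand: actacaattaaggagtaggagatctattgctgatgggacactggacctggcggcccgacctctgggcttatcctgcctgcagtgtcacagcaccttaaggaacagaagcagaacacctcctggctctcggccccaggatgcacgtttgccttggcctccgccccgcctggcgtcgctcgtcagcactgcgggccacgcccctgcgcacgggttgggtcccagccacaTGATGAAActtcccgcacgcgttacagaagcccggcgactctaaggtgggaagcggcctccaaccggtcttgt
Ddit3, chr10:127290543-127290842, + strand: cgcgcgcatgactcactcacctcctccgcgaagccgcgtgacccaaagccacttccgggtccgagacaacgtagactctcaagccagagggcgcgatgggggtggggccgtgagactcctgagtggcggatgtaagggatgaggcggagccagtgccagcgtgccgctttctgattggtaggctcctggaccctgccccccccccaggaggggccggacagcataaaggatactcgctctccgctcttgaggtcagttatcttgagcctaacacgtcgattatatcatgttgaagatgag
All 10 members had a window, and Atf5 and Psat1 had more than 1. The motif stood in 5 of the 12 windows of the members, against 3.97% of 32851 windows of all genes. These belonged to 5 of the 10 members, the 4 shown with capitals and Atf3. Slc7a11 had 2 matches, at -66 and -47 from the start, and that of Trib3 lay 14 bases past the start. No match was found in the windows of Ddit3, Atf4, Atf5, Ppp1r15a or Psat1. A match describes letters of a window and does not show binding. A miss covers only the window and this form of the motif. Elements further from the start, of Ddit3 or any other member, were not searched for.

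The RO-3066 library held 3683 kept cells with a median of 34656 UMIs, against 5833 cells with a median of 23929 UMIs in the DMSO library. Shares of cells were therefore taken after thinning each cell to 10000 UMIs, which kept 3559 RO-3066 and 5749 DMSO cells. Of the barcodes, 7 occurred in both libraries. Stem cell markers summed to 432 CPM with RO-3066 and 345 CPM with DMSO, with Kit at 102 and 68.8 CPM. In the other direction, Ly6a was at 14.2 and 20.8 CPM, and Procr was at 4.27 and 4.65 CPM. Megakaryocyte markers summed to 4767 and 5474 CPM, of which Pf4 made up 4209 and 5129 CPM. Erythroid markers summed to 468 and 209 CPM, mostly Hbb-bt, neutrophil and monocyte markers to 141 CPM in each library with Ly6c2 at 0, and mast cell and basophil markers to 143 and 132 CPM. Lymphoid markers summed to 0.135 and 0.103 CPM with Cd3e and Il7r at 0, dendritic cell markers to 5.58 and 4.79 CPM with Siglech at 0, and endothelial and stromal markers to 29.1 and 23.7 CPM. Of single markers above the minimum, Treml1 was at 2.71-fold with RO-3066 over DMSO, Hbb-bt at 2.28, Ppbp at 1.83, Lyz2 at 1.59, Esam at 1.56, Itga2b at 1.56, Kit at 1.49, Pecam1 at 1.23, Gata2 at 1.05 and Prtn3 at 0.731. The part of these markers in the results on the members was not tested. No cell type here is known to lack the member genes, so the share of cells that free RNA alone would give was not measured.

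The members did not move as a block between the libraries. The transcripts of 2 transcription factors, Ddit3 and Atf5, were more than 2 times as abundant with RO-3066 as with DMSO, and those of Atf4 and Ppp1r15a were higher by smaller factors. The amino acid genes Psat1 and Asns were level and slightly lower. A ratio of at least 1.5-fold, taken on CPM plus 1, was reached by 2 of the 6 members above 20 CPM, Ddit3 and Atf5. Ddit3, Atf5 and Ppp1r15a passed that minimum only through the RO-3066 library, where they are higher, so the minimum itself favours high ratios among the members counted. Among all 5762 genes above the minimum, 3.35% were past 1.5-fold upward with RO-3066 and 2.24% past it downward, and no member was past it downward. With the minimum set on the mean of both libraries, at 5 CPM, 2 of 8 members stood above 1.5-fold and 0 below it, against 4.52% higher and 1.97% lower among 9083 genes. For that reason the median log2 ratio of the 6 members, 0.46, supports nothing beside the -0.06 of all genes above the minimum, and over all 10 members with no minimum the median was 0.25.

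**Figure D1:**
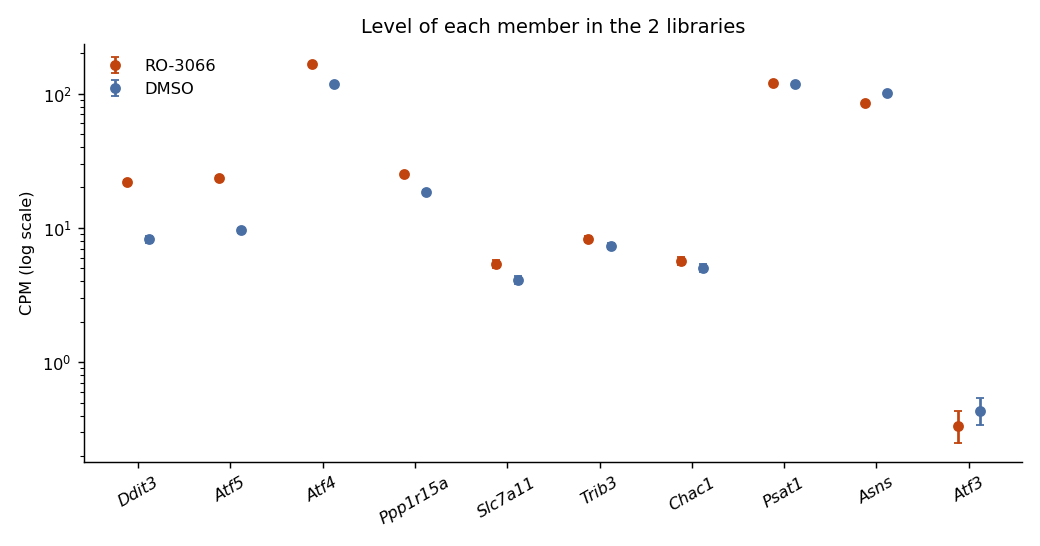
Level of each of the 10 members, in CPM on a log axis, in RO-3066 (red, left of each pair) and DMSO (blue) cells; points are summed counts of 1 library and bars are 95% intervals of counting error. Ddit3 and Atf5 are the members furthest apart, at 22.1 against 8.20 and 23.5 against 9.56 CPM, and Asns and Atf3 are the ones whose RO-3066 point lies below.

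Ddit3 encodes CHOP, a leucine zipper protein of the C/EBP family that pairs with other members of that family and is known for a part in stress-induced cell death. Its level was 22.1 CPM (3604 UMIs) in RO-3066 cells, against 8.20 CPM (1428 UMIs) in DMSO cells, a ratio of 2.70 (2.54 to 2.87). A Ddit3 UMI was found in 16.1% of thinned RO-3066 cells (14.9 to 17.4) and 7.31% of thinned DMSO cells (6.65 to 8.01). The difference was also seen in the number of molecules, since 2.36% of RO-3066 cells and 0.383% of DMSO cells held 2 or more Ddit3 UMIs. The gene lies at chr10:127290774-127296288 (mm10) and overlaps Mars on the opposite strand, which was at 34.5 CPM with RO-3066 and 42.4 CPM with DMSO. The sources used here do not state whether counting used the strand, so reads of the overlap cannot be told apart with certainty.

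Atf5 encodes a leucine zipper protein that is translated under the same control as ATF4 and is known for a part in the mitochondrial stress response. It was at 23.5 CPM in RO-3066 cells, against 9.56 CPM in DMSO cells, a ratio of 2.45 (2.31 to 2.60). Thinned cells with an Atf5 UMI made up 17.9% of RO-3066 cells (16.6 to 19.2) and 8.71% of DMSO cells (7.998 to 9.47). Atf5 and Ddit3 were thus close to each other in ratio and in share of cells. Atf5 (chr7:44812256-44816658) overlaps Nup62 on the opposite strand, at 54.7 CPM with RO-3066 and 51.5 CPM with DMSO, with the same limit.

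Atf4, the central activator of the response, was at 167 CPM in RO-3066 cells and 118 CPM in DMSO cells, a ratio of 1.42 (1.40 to 1.45). It was detected in 73.6% of thinned RO-3066 cells (unthinned 93.4%) and 60.8% of thinned DMSO cells (unthinned 84.3%). Atf4 transcript was therefore widespread in both libraries. Atf3, an activator and repressor of the same protein family that stress and growth signals induce quickly, was near the limit of detection, with 54 UMIs (0.331 CPM) and 75 UMIs (0.431 CPM) in RO-3066 and DMSO cells. Its ratio of 0.770 had an interval that includes 1 (0.532 to 1.11).

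Ppp1r15a encodes GADD34, the inducible partner of the phosphatase that removes phosphate from eIF2 and so ends the response. It was at 25.05 CPM in RO-3066 cells and 18.5 CPM in DMSO cells, a ratio of 1.35 (1.29 to 1.42), and was found in 20.03% and 15.9% of thinned cells. Trib3, a pseudokinase that binds ATF4 and CHOP and dampens their activity, was at 8.26 and 7.31 CPM, a ratio of 1.13 (1.05 to 1.22). Both feedback genes were higher with RO-3066, by less than 1.5-fold. With equal weight for the phases G1, S and G2M, the log2 ratio of Trib3 was 0.61 in place of 0.16, past 1.5-fold. That weighting leans on 111 RO-3066 cells called G1, where the ratio of Trib3 was 2.47. In cells called S and G2M it was 1.25 and 1.11. The share of thinned cells with a Trib3 UMI was 7.92% with RO-3066 and 6.91% with DMSO, and the intervals of these shares overlapped.

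Among the genes of metabolism, Asns encodes asparagine synthetase and Psat1 an enzyme of serine synthesis. Asns was at 85.8 CPM in RO-3066 cells and 100.5 CPM in DMSO cells, a ratio of 0.854 (0.835 to 0.873), and was found in 47.3% and 52.9% of thinned cells. Psat1 was at 119 CPM in both libraries, with a ratio of 1.003 (0.984 to 1.02). Asns was the one member whose share of thinned cells was lower with RO-3066 beyond counting error. Slc7a11, the cystine importer, was at 5.41 and 4.09 CPM, a ratio of 1.32 (1.198 to 1.46). Chac1, an enzyme that breaks down glutathione, was at 5.65 and 5.02 CPM, a ratio of 1.13 (1.02 to 1.24), and was found in 5.28% and 3.86% of thinned cells. Slc7a11 was found in 4.55% and 3.67% of thinned RO-3066 and DMSO cells. In cells of 15000 to 40000 UMIs, the log2 ratio turned to -0.01 for Slc7a11, -0.01 for Chac1 and -0.07 for Psat1, and to 0.02 for Atf3, so the directions of these 4 small differences depend on depth. With equal weight for the phases, the log2 ratio of Slc7a11 was 0.77 in place of 0.33. This again leans on the 111 RO-3066 cells called G1, where its ratio was 4.11, beside 1.30 in S and 1.24 in G2M.

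Over the 10 members, the share of thinned cells was higher with RO-3066 for 5, which are Ddit3, Atf5, Atf4, Chac1 and Ppp1r15a, lower for Asns, and had overlapping intervals for 4. Before thinning, 8 were higher and 0 lower, beside the greater depth of the RO-3066 cells. The members with a motif match in their window had ratios of 0.770 to 1.32, and those without one had ratios of 1.003 to 2.70. Members without a match may hold the element outside the window. Summed, the 10 members made up 462 CPM with RO-3066 and 390 CPM with DMSO, a ratio of 1.19 (1.17 to 1.198).

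Single thinned cells held UMIs of 2.55 members on average with RO-3066 and 2.23 with DMSO, out of 10. Cells without any member made up 4.05% of RO-3066 cells (3.42 to 4.75) and 6.09% of DMSO cells (5.48 to 6.74). Cells with 5 or more members made up 6.72% (5.91 to 7.59) and 3.32% (2.87 to 3.82). The richest cells held 8 members, in each library. The variance of the summed member UMIs per thinned cell was 1.78 times their mean with RO-3066 and 1.67 times with DMSO, where pure counting error gives a ratio of 1. For Ddit3 alone this ratio was 1.15 and 1.03, at means of 0.189 and 0.0771 UMIs per cell. At such low means the ratio lies near 1 even where levels vary, so it does not show how evenly Ddit3 is spread.

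The cells were next split by Pf4, the platelet chemokine that marks the megakaryocyte line, into 5 groups by its share of the cell's UMIs, with limits that divide the DMSO cells evenly. The limits were 0.0173, 0.0351, 0.0918 and 0.381% of UMIs, and Pf4 averaged 1.10% of UMIs in the highest group of RO-3066 cells and 1.28% in that of DMSO cells. From the lowest to the highest group there were 1105, 787, 624, 576 and 591 RO-3066 cells, against 1166 or 1167 DMSO cells in each. Depth moved with Pf4, with median UMIs of 82007 in the highest and 24949 in the lowest group of RO-3066 cells and of 36306 and 21340 in those of DMSO cells. So did the share of cells called G2M, at 97.6% and 78.1% of RO-3066 cells and 72.7% and 55.4% of DMSO cells.

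Ddit3 was higher in cells with more Pf4, in both libraries. From the lowest to the highest Pf4 group its level was 14.6, 14.8, 18.1, 24.5 and 29.7 CPM in RO-3066 cells, and 6.04, 6.94, 7.67, 7.996 and 9.97 CPM in DMSO cells. The highest group stood 2.04-fold (1.83 to 2.28) above the lowest with RO-3066 and 1.65-fold (1.38 to 1.98) with DMSO. Every Pf4 group of RO-3066 cells lay above every Pf4 group of DMSO cells. Within a Pf4 group, the ratio of RO-3066 to DMSO cells was 2.41, 2.13, 2.36, 3.07 and 2.98 for Ddit3, from the lowest to the highest. For Atf5 it was 2.37, 2.46, 1.97, 2.25 and 2.85.

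Ppp1r15a was also higher in the highest Pf4 group, at 30.9 against 20.2 CPM in RO-3066 cells (1.53-fold, 1.39 to 1.69) and 23.2 against 14.4 CPM in DMSO cells (1.61-fold, 1.44 to 1.81). Ddit3 and Ppp1r15a were the 2 of 6 members above the minimum that were at least 1.5-fold higher in the highest group with RO-3066, and Ppp1r15a the 1 of 4 with DMSO. Each passed the minimum only through the highest group where it is high, except Ppp1r15a with RO-3066. In cells of 15000 to 40000 UMIs the log2 ratio of Ppp1r15a was 0.36 with RO-3066 and 0.40 with DMSO, under 1.5-fold, while that of Ddit3 was 1.30 and 0.63. Among all genes above the minimum, 10.0% were that much higher and 11.0% that much lower in RO-3066 cells, and 9.21% and 9.59% in DMSO cells, so such ratios were frequent along Pf4. No member above the minimum was 1.5-fold lower in either library.

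Most other members were less steep along Pf4. Atf4 was 1.13-fold higher in the highest than in the lowest group of RO-3066 cells (177 and 157 CPM), and 1.45-fold with DMSO (141 and 97.2 CPM). Psat1 was 1.12-fold higher with RO-3066 and 1.45-fold with DMSO, and Asns 1.17-fold and 1.29-fold. For these 3 genes the ratio along Pf4 was thus larger in DMSO cells, a difference that was not tested. Atf5 had ratios of 1.25 (1.14 to 1.37) with RO-3066 and 1.04 (0.891 to 1.21) with DMSO.

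Trib3 had the opposite sign with RO-3066, at 7.74 CPM in the highest against 10.1 CPM in the lowest Pf4 group, a ratio of 0.765 (0.658 to 0.891), and with DMSO its ratio was 0.889 (0.743 to 1.07). Chac1 had ratios of 0.941 (0.777 to 1.14) with RO-3066 and 1.49 (1.19 to 1.87) with DMSO, and Slc7a11 of 1.41 (1.15 to 1.74) and 1.35 (1.06 to 1.74). Atf3 was highest where Pf4 was, at 0.518 against 0.238 CPM in RO-3066 cells and 0.716 against 0.155 CPM in DMSO cells. Its intervals were wide, 0.931 to 5.92 and 1.69 to 17.7. In cells of 15000 to 40000 UMIs, where the highest group of RO-3066 cells held 33 cells, the signs of Atf5, Chac1 and Atf3 with RO-3066 and of Trib3 with DMSO turned. The summed members were 1.18-fold higher (1.16 to 1.21) in the highest group with RO-3066 and 1.40-fold (1.36 to 1.43) with DMSO.

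**Figure D2:**
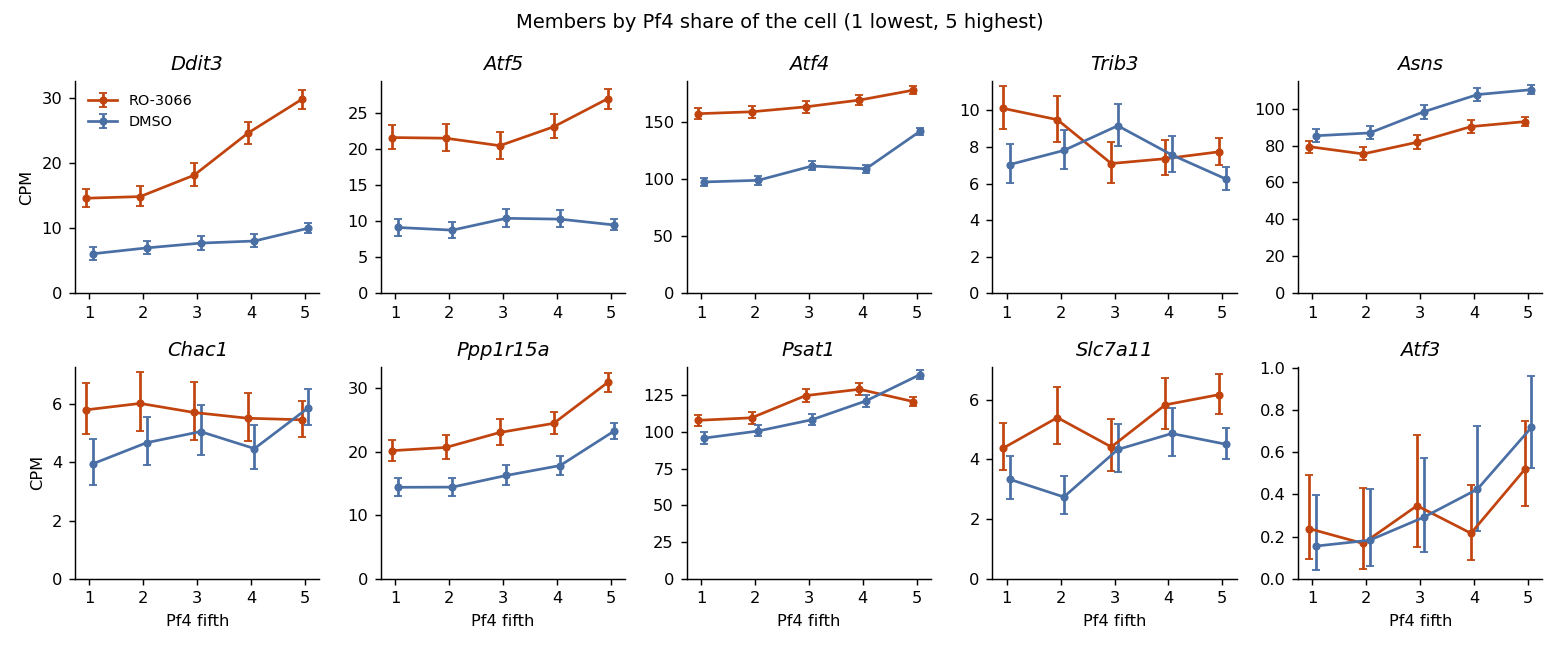
Level of each member in CPM (y axes from 0) in the 5 groups of Pf4 share, lowest to highest, for RO-3066 (red) and DMSO (blue) cells, with 95% intervals of counting error. The Ddit3 line of RO-3066 cells climbs to 29.7 CPM while that of DMSO cells stays at or below 9.97 CPM, and the Trib3 line of RO-3066 cells is lower at high Pf4.

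Because depth moved with Pf4, Ddit3 was also taken within ranges of UMIs per cell. In RO-3066 cells it was at 21.6 CPM under 15000 UMIs, 14.7 CPM from 15000 to 25000, 15.8 CPM from 25000 to 40000, 20.4 CPM from 40000 to 80000 and 30.9 CPM above. In DMSO cells the same ranges gave 11.3, 7.51, 7.40, 9.03 and 9.82 CPM. RO-3066 cells were thus higher in each range. Within the range from 40000 to 80000 UMIs, the upper 2 Pf4 groups of RO-3066 cells were at 23.3 CPM and the lower 3 at 16.4 CPM, against 9.55 and 6.62 CPM in DMSO cells. The upper Pf4 groups were higher in every range of both libraries, but in the last range the lower DMSO groups held 1 cell. Within cells called G1, S and G2M, the Ddit3 ratio of RO-3066 to DMSO was 2.69, 2.01 and 2.76, and that of Atf5 was 2.53, 1.99 and 2.59.

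The second split was by Cdkn1a, the p53 target gene of the cell cycle inhibitor p21, which was at 50.4 CPM in RO-3066 cells and 23.8 CPM in DMSO cells. Of thinned RO-3066 cells, 2612 held 0 Cdkn1a UMIs, 611 held 1, 207 held 2 to 3 and 129 held 4 or more. Of thinned DMSO cells, 4802, 758, 167 and 22 fell into these groups. No member above the minimum differed by 1.5-fold between cells with 2 or more and cells with 0 Cdkn1a UMIs, in either library. The background was 1.67% of genes higher and 0.00% lower with RO-3066, and 1.71% higher and 1.56% lower with DMSO.

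For Ddit3 the result depended on how cells were grouped. By thinned UMIs it differed by no more than counting error in RO-3066 cells, with 22.6 CPM at 2 or more Cdkn1a UMIs against 21.2 CPM at 0, a ratio of 1.06 (0.943 to 1.198). Between cells with at least 50 CPM and cells with 0 Cdkn1a UMIs in the whole cell, its log2 ratio in RO-3066 cells was 0.60, past 1.5-fold. The whole-cell grouping uses counts before thinning and is not independent of depth, with which Ddit3 also moved. The part of depth was not tested. By thinned UMIs, Ddit3 in DMSO cells was at 12.4 and 7.86 CPM, a ratio of 1.57 (1.22 to 1.99) at a level under the minimum. Among cells without any Cdkn1a UMI, the libraries differed about as much as over all cells, since there the ratio of RO-3066 to DMSO was 2.70 for Ddit3, 2.56 for Atf5 and 1.49 for Atf4. Among cells with 2 to 3 Cdkn1a UMIs these ratios were 1.84, 2.10 and 1.03.

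Atf4 had opposite signs in the libraries, at 136 against 171 CPM in RO-3066 cells with 2 or more and with 0 Cdkn1a UMIs (0.795-fold, 0.758 to 0.834), and at 138 against 115 CPM in DMSO cells (1.1999-fold, 1.12 to 1.29). Chac1 did so too, at 4.35 against 5.90 CPM with RO-3066 (0.737-fold, 0.557 to 0.961) and 8.68 against 4.83 CPM with DMSO (1.80-fold, 1.33 to 2.38). For both genes, the RO-3066 cells rich in Cdkn1a were therefore on the low side of their library and the DMSO cells on the high side. Grouped by 50 CPM of Cdkn1a in the whole cell, the log2 ratios in RO-3066 cells were -0.04 for Atf4 and 0.02 for Chac1, so the opposite sign did not hold for Chac1. By that grouping the signs of Atf5, Asns, Trib3 and Slc7a11 in RO-3066 cells, and of Asns and Psat1 in DMSO cells, also turned. Atf5, Asns and Psat1 had ratios of 0.812, 0.823 and 0.853 with RO-3066, and of 1.21, 0.931 and 0.942 with DMSO. Trib3 and Slc7a11 had ratios of 0.861 and 0.760 with RO-3066 and of 1.33 and 1.16 with DMSO. Ppp1r15a had ratios of 1.09 (0.975 to 1.21) and 1.23 (1.03 to 1.46).

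The sum of the members was 0.845-fold (0.822 to 0.869) in Cdkn1a-rich RO-3066 cells and 1.07-fold (1.03 to 1.12) in Cdkn1a-rich DMSO cells. Cells called G1 made up 7.74% of RO-3066 cells with 2 or more Cdkn1a UMIs and 2.53% of those with 0, and 11.6% and 5.14% of such DMSO cells. Pf4 made up 0.387% and 0.396% of UMIs in these groups of RO-3066 cells, thus about level, and 0.943% and 0.476% in those of DMSO cells. At 4 or more Cdkn1a UMIs, 11.6% of RO-3066 cells and 31.8% of only 22 DMSO cells were called G1. Pf4 there made up 0.299% and 1.52% of UMIs. The part of the G1 share and of Pf4 in the ratios was not tested. With both splits at once, Ddit3 in the highest Pf4 group of RO-3066 cells was at 32.4 CPM with a Cdkn1a UMI and 28.6 CPM without, and in the lowest Pf4 group at 14.8 and 14.3 CPM.

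**Figure D3:**
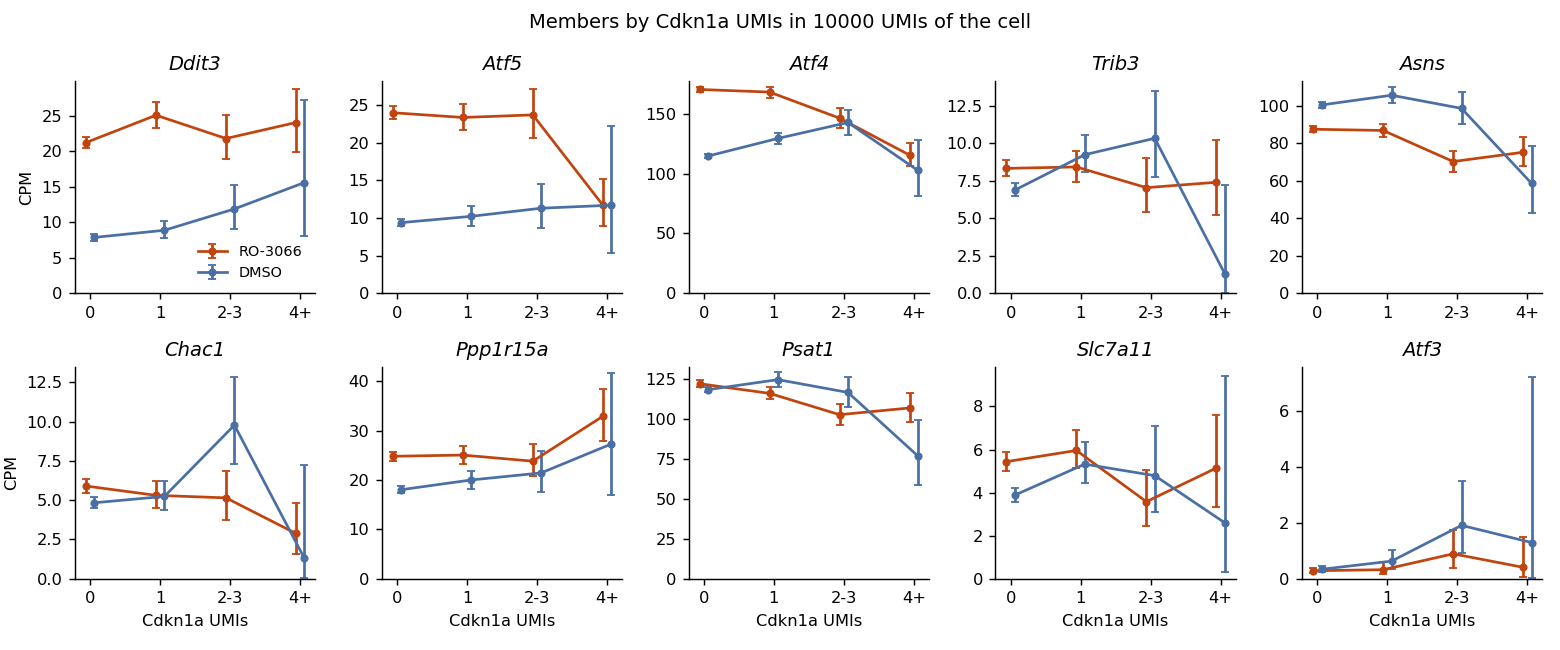
Level of each member in CPM (y axes from 0) by the number of Cdkn1a UMIs in 10000 UMIs of the cell, for RO-3066 (red) and DMSO (blue) cells, with 95% intervals of counting error. Ddit3 of RO-3066 cells lies between 21.2 and 25.1 CPM in these groups, Atf4 of RO-3066 cells declines to 116 CPM, and the last DMSO group rests on 22 cells.

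Co-detection was measured for the 45 pairs of members as the number of thinned cells with a UMI of both, divided by the number that the shares of the single genes would give if independent. Pairs were set beside all gene pairs of like expected number. Where that number was 50 cells or more, the median ratio was 1.07 over 26 member pairs in RO-3066 cells and 1.06 over 24 pairs in DMSO cells, beside 1.001 for all gene pairs in each. From 10 to 50 cells, the median ratio was 1.10 over 9 pairs and 1.19 over 13 pairs, beside 1.01 for all gene pairs in each. Members were thus found together slightly more often than gene pairs at large, and most pairs lay close to 1.

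Trib3 and Chac1, both with a promoter match, had the highest ratio in both libraries among pairs with at least 10 expected cells. They were found together in 33 RO-3066 cells, where 14.9 were expected, a ratio of 2.22 (1.53 to 3.11), and in 42 DMSO cells, where 15.3 were expected, a ratio of 2.74 (1.98 to 3.70). It was the 1 pair of 9 at or above 1.5 in RO-3066 cells, against 1.41% of all gene pairs of 10 to 50 expected cells. In DMSO cells 5 of 13 pairs were, against 1.57% of all such pairs. When cells were thinned to 5000 UMIs, 3 pairs in RO-3066 and 2 in DMSO cells reached 1.5. Fewer UMIs per cell lower the expected number of a pair, so these counts need not rest on the same pairs. They give no order of the libraries. The 5 of 13 pairs counted first in DMSO cells, not those at 5000 UMIs, began with Trib3 and Chac1. Next came Trib3 with Slc7a11 at 2.40 (1.67 to 3.34) and Atf5 with Chac1 at 2.02 (1.43 to 2.75). The rest were Ddit3 with Slc7a11 at 1.62 (1.05 to 2.39) and Atf5 with Slc7a11 at 1.58 (1.06 to 2.26). With RO-3066 the last 4 pairs had ratios of 1.25, 1.10, 1.26 and 1.31, each with an interval that includes 1. Of pairs with 50 or more expected cells, 0 of 26 in RO-3066 and 0 of 24 in DMSO cells reached 1.5, against 0.0194% and 0.0209% of all gene pairs.

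Chac1 and Slc7a11 had fewer than 10 expected cells and stand outside that count. They were found together in 15 RO-3066 cells where 8.56 were expected (1.75, 0.982 to 2.89), and in 33 DMSO cells where 8.15 were expected (4.05, 2.79 to 5.68). Chac1 was also found with Asns at 1.35 (1.12 to 1.61) in RO-3066 and 1.29 (1.10 to 1.51) in DMSO cells, and with Atf4 at 1.15 (0.980 to 1.34) and 1.41 (1.22 to 1.63). Ddit3 and Chac1, both known as targets of ATF4, were not found together above expectation, at 0.923 (0.614 to 1.33) and 0.802 (0.427 to 1.37). Ddit3 and Atf5, the members furthest apart between the libraries, had a ratio of 1.07 (0.884 to 1.29) in RO-3066 cells. Among cells without a Cdkn1a UMI, Trib3 and Chac1 had ratios of 2.10 (1.35 to 3.11) with RO-3066 and 2.70 (1.84 to 3.83) with DMSO. Among cells with one, the ratios were 2.59 (1.19 to 4.90) and 2.69 (1.35 to 4.79), on only 3.47 and 4.09 expected cells. In the lowest Pf4 group of RO-3066 cells, with 5.75 expected cells, the ratio was 1.91 (0.956 to 3.41), an interval that includes 1.

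Across cells, the level of each member was compared with the mean of the other 9, as log of 1 plus thinned UMIs, over 3559 RO-3066 and 5749 DMSO cells. The correlations describe sparse counts of cells that share a library and are low throughout. Asns had the highest, with r = 0.236 in RO-3066 and 0.175 in DMSO cells, then Atf4 with 0.195 and 0.166 and Psat1 with 0.165 and 0.126. Ddit3 had 0.0276 and 0.00681, and Ppp1r15a 0.00799 and 0.00478. Ddit3 and Ppp1r15a, which had ratios above 1.5 along Pf4 in both libraries, were thus nearly uncorrelated with the rest of the members across cells.

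Of the 5762 genes above the minimum, the 10 named genes whose cell-to-cell level was most like the mean of the members were Nars (r = 0.319 in each library), Eif2s2, Mthfd2, Eif4ebp1, Psph, Nupr1, Iars, Tars, Slc3a2 and Gars. Mthfd2, a mitochondrial folate enzyme, had r = 0.285 in RO-3066 and 0.315 in DMSO cells, and Gars, the glycyl-tRNA synthetase, 0.180 and 0.245. All 10 stand in the pathway lists of the response, which hold 115 of the ranked genes. The median r over all genes was 0.00585 and 0.0065.

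Of the eIF2 kinases 3 of 4 passed the minimum, with a median log2 ratio of -0.06, and the highest ratio was that of Eif2ak2, the double-stranded RNA sensor, at 1.17. All 12 genes of eIF2, its exchange factor eIF2B and its phosphatase passed, with a median of -0.24, and Eif2b3 was at 0.715-fold, Eif2b5 at 0.738-fold and Eif2s1 at 0.737-fold. None of the genes of these 2 lists above the minimum was 1.5-fold higher or lower. Of 22 leucine zipper partners 13 passed, with a median of 0.05. Of these, 1 was 1.5-fold higher, Jdp2 at 1.71, while Cebpb was at 1.39 and Nfe2l2 at 0.814. Jdp2 passed only through RO-3066, at 30.2 against 17.6 CPM, and 3.35% of all genes above the minimum were that much higher.

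Of 14 genes of serine, proline and one-carbon synthesis 9 passed, all lower, with a median of -0.14, led by Mthfd1l at 0.685-fold, and with Mthfd1 at 0.756 and Shmt1 at 0.852. Of 11 amino acid transporters 6 passed, with a median of 0.03, and Slc7a5, an importer of leucine, was at 0.767-fold, Slc38a2 at 0.876 and Slc7a1 at 1.07. All 20 cytosolic aminoacyl-tRNA synthetases passed, with a median of -0.25 and with Tars at 0.715-fold, Gars at 0.761 and Rars at 0.767. No gene of these 3 lists above the minimum differed by 1.5-fold in either direction. Of the 10 genes most like the members from cell to cell, Tars and Gars had the lowest log2 ratios, at -0.48 and -0.39. Eif2s2, Eif4ebp1 and Nars were at -0.26, -0.24 and -0.19. Psph, Iars and Mthfd2, at -0.12, -0.09 and -0.07, lay near the median of -0.06 of all genes above the minimum. Nupr1 and Slc3a2 went the other way, at 0.47 and 0.06.

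Other genes that ATF4 or CHOP can induce were mixed, with 8 of 18 above the minimum, a median of 0.28 and 3 at least 1.5-fold higher. These were Cdkn1a at 2.12, which is also a p53 target, Ndrg1 at 1.67 and Sqstm1, a receptor of autophagy, at 1.54. Among all genes above the minimum, 3.35% were at least 1.5-fold higher. Below the minimum, and named after its values were seen, Gdf15, a secreted factor, was at 14.1 CPM with RO-3066 and 2.05 CPM with DMSO. Its ratio was 6.88 (6.15 to 7.71). Stc2 of the same list, also below the minimum, was at 0.417. Of 22 p53 targets 8 passed, all higher, with a median of 0.33. Past 1.5-fold were 2, Cdkn1a and Ccng1 at 1.59, and Bbc3 was at 1.46. Ccng1 and Bbc3 passed only through RO-3066, where they are higher, so the minimum favours them. Below the minimum, Phlda3 was at 5.24 and Zmat3 at 3.63, and no listed p53 target was lower. These too were named after their values were seen. The other stress responses had no gene above the minimum past 1.5-fold in either direction. Of 19 genes of the endoplasmic reticulum unfolded protein response 16 passed, with a median of -0.05, and Xbp1 was at 0.778-fold, Pdia4 at 0.706 and Calr at 1.31.

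Of 10 mitochondrial stress genes 8 passed, all lower, with a median of -0.32, and Hspd1 was at 0.759-fold, Clpp at 0.765 and Lonp1 at 0.733. Of 12 NRF2 and glutathione genes 8 passed, with a median of 0.04, and Gclm was at 1.36, Gpx4 at 1.11 and Gsr at 0.831. Of 17 immediate early and heat shock genes 8 passed, all higher, with a median of 0.12, and Btg2 was at 1.33, Hsph1 at 1.19 and Dnajb1 at 1.15. Atf5 was higher with RO-3066, and the mitochondrial chaperone and proteases were lower. Ddit3 was higher, and the unfolded protein list was near the median of all genes. Links between these values were not tested.

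**Figure D4:**
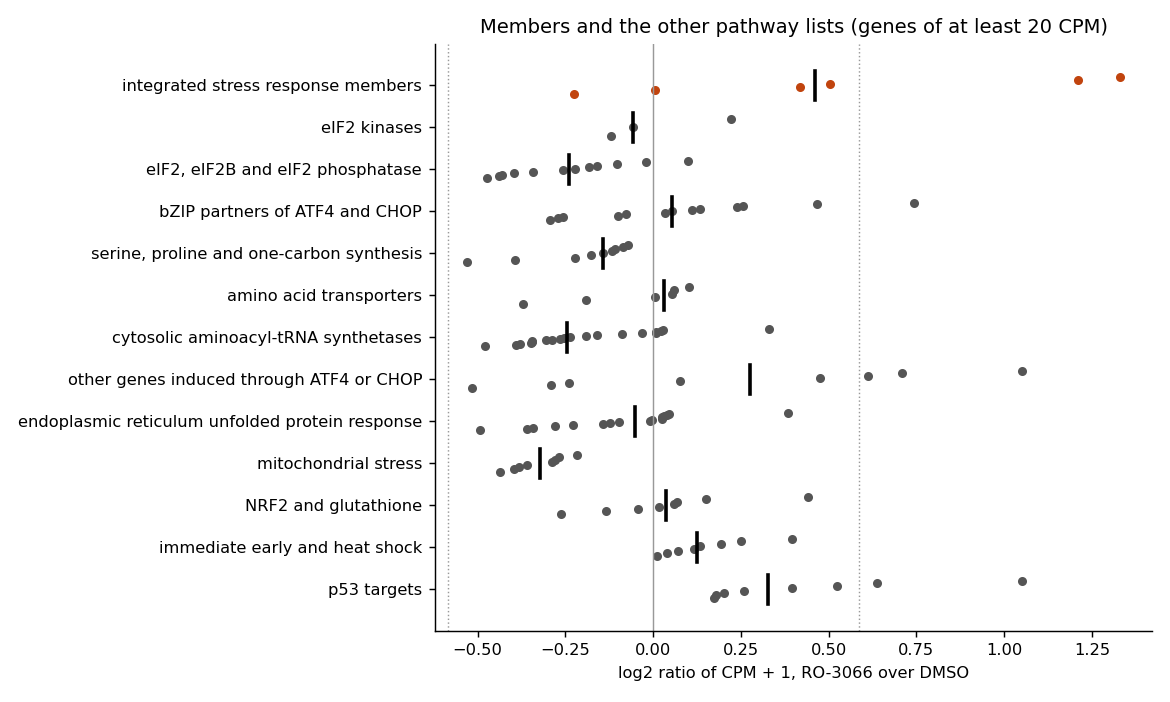
Log2 ratio of RO-3066 over DMSO for genes of at least 20 CPM in either library, with the members (red) above the 12 pathway lists (grey); each point is 1 gene, thick bars are medians and dotted lines mark 1.5-fold. Ddit3 and Atf5 are the points furthest right, while the synthetases (median -0.25) and mitochondrial stress genes (median -0.32) lie mostly left of 0.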

How the data were processed

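The authors deposited raw UMI counts, a gene by barcode matrix per library, from a 10x 3′ workflow. The submitters' processing notes name Cell Ranger 5.0.1 and mm10, and the matrix headers name Cell Ranger 7.1.0; no source used here states strand or intron settings. Gene positions are from GENCODE vM21 and promoters from RefSeq. Barcodes with at least 1000 UMIs, 500 genes and at most 10% mitochondrial UMIs were kept, and 115 RO-3066 and 301 DMSO cells were left out as likely doublets (0.8% per 1000 barcodes, 50 neighbours of simulated doublets). The kept cells held 162979960 UMIs in the RO-3066 and 174194261 in the DMSO library. UMIs were summed and scaled to CPM, and log2 ratios use CPM plus 1, except for the summed members, which use CPM. Intervals are exact (conditional Poisson for folds, Clopper-Pearson for shares) at 95% and cover counting error only. No test was possible between single libraries.

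Members and lists were chosen with earlier results of these data known. All members are named, as are Pf4, Cdkn1a and the 10 genes most like the members. From each other list come the 3 genes of largest absolute log2 ratio among those of at least 20 CPM. Procr, Ly6a, Gdf15, Stc2, Phlda3, Zmat3, the markers at 0 and overlapping genes were named after their values were seen. The value of 1 gene of these lists is not reported here. Cells were called G1, S or G2M with scanpy 1.11.5. The calculation was tested on simulated data. Alternatives were other filters, scalings, minimum levels, pseudocounts, depths of thinning, cell groupings and ranges of depth; the minimum on the mean of both libraries and the ranges of depth over Pf4 groups were added after the data were seen. Software was Python 3.11.15 with scipy 1.17.1, numpy 2.4.6 and, for tables, pandas 2.3.3.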

Additional observations from a re-analysis of the deposited data

Results flagged for a closer look

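For 3 results the cells rich in Cdkn1a lay on opposite sides of the other cells in the libraries. The log2 ratio of cells with 2 or more over cells with 0 Cdkn1a UMIs was lower in RO-3066 than in DMSO cells by a difference of -0.59 for Atf4, -1.10 for Chac1 and -0.34 for the summed members. With 1 library per group, none of these differences was tested. Chac1 rests on 4.35 CPM in the Cdkn1a-rich RO-3066 cells and 8.68 CPM in the Cdkn1a-rich DMSO cells. With cells grouped by Cdkn1a of at least 50 CPM in the whole cell, the log2 ratio of Chac1 in RO-3066 cells was 0.02, and that of Atf4 was -0.04.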

How the results depend on the processing

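Of 95 values recomputed for the counts, sums and medians under another setting, 78 stayed within the limits set for them (counts within 1.5 times) and 17 moved, and none of the 95 changed sign. Of 260 log2 ratios of single members 197 stayed and 63 moved, and 18 changed sign, 10 of them in cells of 15000 to 40000 UMIs, 7 with cells grouped by Cdkn1a of 50 CPM and 1 with Pf4 limits of each library's own. All 40 shares of cells moved with the depth of thinning. The count of members at least 1.5-fold higher with RO-3066 was 1 in place of 2 with equal weight per cell, with thinned cells and with cells of 15000 to 40000 UMIs. In each of these Ddit3 missed the minimum of 20 CPM, at 19.6, 18.9 and 15.5 CPM in RO-3066 cells, and its log2 ratio was 1.15, 1.19 and 0.97. The log2 ratio of the summed members, 0.25, was 0.30 with median-ratio scaling, 0.13 in cells of 15000 to 40000 UMIs, 0.32 without the highest Pf4 group and 0.27 without cells of 2 or more Cdkn1a UMIs. Without thinning, 8 members had a higher and 0 a lower share of cells with RO-3066, in place of 5 and 1. Co-detection pairs at or above 1.5 numbered 3 in RO-3066 cells (median ratio 1.11) and 2 in DMSO cells when thinned to 5000 UMIs, and 0 in RO-3066 cells of 15000 to 40000 UMIs. Fewer UMIs or fewer cells lower the expected number of a pair, so these counts need not rest on the pairs of the main setting. Members at least 1.5-fold higher at high Pf4 numbered 1 in RO-3066 cells with Pf4 limits of each library's own or with 15000 to 40000 UMIs, where the highest group held 33 cells, and 0 in DMSO cells of that depth. Grouped by Cdkn1a of at least 50 CPM in the whole cell, 1 member was 1.5-fold higher in RO-3066 cells, Ddit3 (log2 ratio 0.60). Where no cause is named, it was not tested. No paired analysis was possible because each group is 1 library with no replicate number in the labels. Depth limits what the rarest member, Atf3, can show, with 54 UMIs in RO-3066 and 75 in DMSO cells.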

Other observations

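Members also differed between cells called in different phases of the cell cycle, in calls made from the same thinned counts. Atf4 was at 85.9 CPM in G1-called and 173 CPM in G2M-called RO-3066 cells, and at 79.8 and 124 CPM in such DMSO cells. Asns and Psat1 had the same order, Asns with 47.7 and 88.5 CPM in RO-3066 cells and 42.0 and 112 CPM in DMSO cells. Trib3 did not: in RO-3066 cells it was at 17.2 CPM (12.5 to 23.0) when called G1 and 7.95 CPM (7.50 to 8.43) when called G2M, and in DMSO cells at 6.97 CPM (4.88 to 9.65) and 7.18 CPM (6.71 to 7.68). Slc7a11 was at 9.55 CPM (6.18 to 14.1) in G1-called and 5.43 CPM (5.06 to 5.83) in G2M-called RO-3066 cells, and at 2.32 and 4.37 CPM in DMSO cells. Only 111 RO-3066 cells and 308 DMSO cells were called G1.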
